A study of Mus musculus with 6 samples.

Results

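The 8 genes described here are outputs of the circadian clock in mouse liver: the PAR bZIP transcription factors Dbp, Tef and Hlf, their repressor Nfil3, the clock output genes Ciart and Usp2, and the repressors Bhlhe40 and Bhlhe41. They were taken by gene symbol from a table of 21956 genes, in which each of the 8 symbols occurred once, and all 8 passed the filter on low counts that left 13197 genes. Messenger RNA was sequenced from the livers of 6 mice. The knockout group held 3 Stingfl/fl Cdh5-Cre+ mice, in which Cre under the endothelial Cdh5 promoter acts on floxed alleles of Sting, an adaptor of cytosolic DNA sensing. The control group held 3 Stingfl/fl Cdh5-Cre- littermates, so that both groups carried the floxed alleles and Cre was present in the knockout group only. Both groups were kept on chow to 8 weeks of age and then ate CDAHFD, a high-fat diet without choline, for 10 weeks, which models metabolic steatohepatitis. The sources used here do not give the sex of the mice, the time of day or the feeding state at collection, and the part of these in the values below was not tested.

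In the clock, CLOCK and BMAL1 bind E-boxes in DNA and drive their own repressors, the Period and Cryptochrome proteins, together with output genes. DBP, TEF and HLF are among those outputs and in turn activate genes through a second element, the D-box, which NFIL3 (also called E4BP4) occupies as a repressor. Nfil3 itself is repressed by the REV-ERB receptors, so that its transcript peaks at another time of day than that of Dbp. In liver the PAR bZIP factors are known for controlling drug-metabolising enzymes and their cofactors.

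E-boxes stood close to the start sites of part of the set. The stretches that hold them are shown because CLOCK and BMAL1 bind this element. Binding at these copies was not tested. Promoter windows from RefSeq on GRCm38.p6, running from 250 bases before to 50 after a gene's start, were found for 7 of the 8 members, with 2 start sites for Tef. The E-box CACGTG, which reads the same on both strands, occurred in 4 of these 8 windows (Ciart, Bhlhe41 and both Tef starts) and in 7.15% of all 32851 windows. By gene it was found in 3 of the 7 members with a window. Among the other lists described below, the share of windows ran from 9.09% (fasting and feeding) to 30.8% (PAR bZIP targets), with 12.5% for the core clock. The Ciart window held 3 E-boxes, beginning 116, 58 and 44 bases before the start. The E-box of Bhlhe41 began 153 bases and that of the second Tef start 138 bases before the start. The E-box at the first Tef start lay in an annotated exon and is not shown. Each stretch is written 5′ to 3′ on the gene's strand, with the E-boxes in capitals.
Ciart, chr3:95882252-95882374, minus strand: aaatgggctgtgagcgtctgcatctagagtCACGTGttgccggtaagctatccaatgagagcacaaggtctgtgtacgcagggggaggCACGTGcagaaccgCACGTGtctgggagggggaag
Tef, chr15:81811246-81811311, plus strand: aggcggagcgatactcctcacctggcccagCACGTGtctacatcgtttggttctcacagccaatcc
Bhlhe41, chr6:145865559-145865603, minus strand: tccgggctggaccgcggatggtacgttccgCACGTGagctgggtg
The D-box, searched as TTATGTAA or TTACGTAA on both strands, was not found in the members' windows and occurred in 1.06% of all windows. A core of the element bound by REV-ERB and ROR receptors, searched as TAGGTCA or TGGGTCA on both strands, was found in 1 member's window, that of Nfil3, 12 bases before the start, and in 6.45% of all windows. The copy at Nfil3 lay in an annotated exon.

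Library totals ran from 16704664 to 21025461 counts. Albumin (Alb) took 6.91% to 10.9% of them, a share of whole liver, although the labels also name sinusoidal endothelial cells. Sting1 stood at 106, 114 and 80 counts in the 3 knockout livers (replicates 1, 2 and 3, the order kept throughout) and at 240, 365 and 226 in the 3 control livers, lower in each knockout library than in each control library. Control replicate 2 stood apart, with a TMM scaling factor of 1.26 against 0.922 to 1.01 in the other libraries and the lowest albumin share. The factors lay between 0.922 and 0.941 in the knockout group and between 0.975 and 1.26 in the control group. Levels below are CPM, the gene's share of a library's counts scaled to a fixed total, on TMM-scaled library sizes unless TPM, which allows for gene length, is named. In bulk liver, fewer cells of a type and less RNA per cell cannot be told apart.

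No member passed the test over all genes. Of 13197 genes 0 (0%) had an adjusted p under 0.05 in edgeR's quasi-likelihood test with Benjamini-Hochberg adjustment. At an unadjusted p under 0.05, 6 members (Dbp, Tef, Hlf, Ciart, Usp2 and Bhlhe40) stood higher in the knockout livers, against 3.75% of all genes in that direction. None of the 8 members had such a p in the lower direction, against 7% of all genes. The groups did not overlap for 5 members, Dbp, Tef, Hlf, Ciart and Usp2, all higher in the knockout, whereas 7.25% of all genes were separate in that direction and 9.14% in the other. Scaled to total counts or given as TPM, 3 of the 8 were separate (Hlf, Ciart and Usp2). The median log2 fold change of the 8 was 0.97, beside 0.008 over all genes tested. The members were chosen with earlier results of these data known, so these shares do not test the set. Several members also shared an order of libraries, described below. DESeq2 called 3 members higher, Usp2 (adjusted p = 0.00335), Ciart (0.00383) and Tef (0.0496), where it called 0.92% of genes in either direction.

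**Figure D1:**
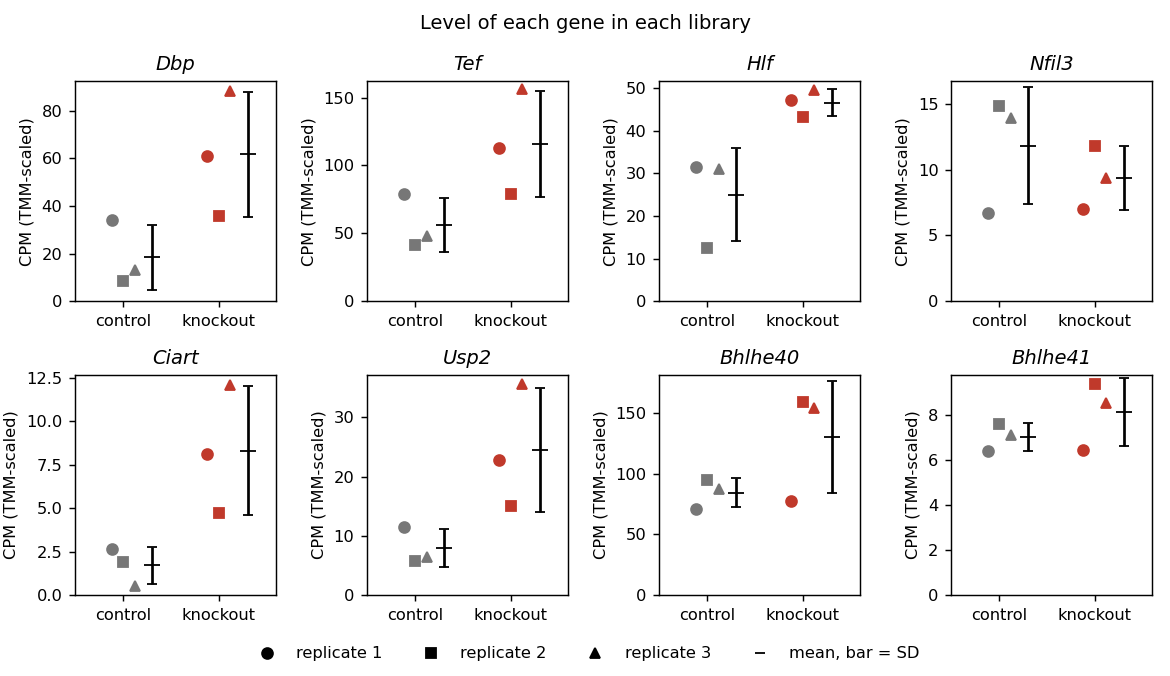
CPM on TMM-scaled library sizes (vertical axes, from 0) of the 8 genes in the 3 control (grey) and 3 knockout (red) livers; symbols mark the replicate, and the dash and bar give the mean and SD. Points of the 2 groups are separate for Dbp, Tef, Hlf, Ciart and Usp2, by a margin as small as 78.8 against 78.7 CPM for Tef, and mixed for Nfil3, Bhlhe40 and Bhlhe41.

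Dbp (ENSMUSG00000059824, GRCm38 chromosome 7, 45705088 to 45710203, plus strand) is the PAR bZIP factor named for binding the D site of the albumin promoter. It stood at 60.95, 35.97 and 88.3 CPM in the knockout livers, whereas the control livers had 34.0, 8.38 and 13.03 CPM. Control replicate 1 lay beside knockout replicate 2, and the other 2 control livers were far below every knockout liver. The means were 61.7 ± 26.2 CPM (SD, n = 3) in knockout and 18.5 ± 13.7 CPM (SD, n = 3) in control livers, a log2 fold change of 1.74 with a standard error of 0.57 (edgeR unadjusted p = 0.0203, adjusted p = 0.392). In TPM knockout replicate 2 fell just under control replicate 1, at 36.3 against 37.2, so that the separation of the groups rests on the TMM scaling. The two-sided exact permutation p on log2 CPM was 0.1, the smallest that 3 against 3 allows. Without control replicate 2 the log2 fold change was 1.40 (edgeR unadjusted p = 0.0594), and without knockout replicate 3 it was 1.40 as well (0.0574).

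Dbp overlaps Sphk2, a sphingosine kinase gene on the opposite strand. The deposited Dbp values were not whole in any library, at 1145.7, 627.48 and 1607.47 for knockout livers and 673.24, 176.16 and 267.15 for control livers. Sphk2 had 718, 445 and 403 counts in knockout livers, beside 447, 541 and 571 in control livers. Sphk2 was highest in knockout replicate 1 and lowest in knockout replicate 3, and both of these libraries had more Dbp than any other. A relation between the values of these genes was not tested.

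Tef (ENSMUSG00000022389, chromosome 15, 81802421 to 81826863, plus strand), the thyrotroph embryonic factor, had the most counts of the PAR bZIP factors. It stood at 113, 78.8 and 156 CPM in knockout livers against 78.7, 41.4 and 47.8 CPM in control livers. Knockout replicate 2 and control replicate 1 were level, and the remaining knockout livers exceeded the remaining control livers. The means were 116 ± 38.8 and 56.0 ± 19.95 CPM (SD, n = 3 each), a log2 fold change of 1.05 with a standard error of 0.30 (edgeR unadjusted p = 0.00815, adjusted p = 0.373). As for Dbp, TPM put knockout replicate 2 below control replicate 1, at 35.1 against 36.7. With each library left out in turn, the log2 fold change lay between 0.78 and 1.39.

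Hlf (ENSMUSG00000003949, chromosome 11, 90336536 to 90390895, minus strand), the hepatic leukemia factor, was the most even of the 3 among knockout livers. Its values were 47.1, 43.1 and 49.5 CPM there and 31.5, 12.5 and 31.1 CPM in the control livers. Control replicate 2 was far below the other control libraries, which lay within 1 CPM of each other. The means were 46.6 ± 3.22 and 25.03 ± 10.8 CPM (SD, n = 3 each), and the groups were separate in TPM as well, at 12.99 to 14.7 against 5.41 to 10.3. The log2 fold change of 0.90 (standard error 0.31, edgeR unadjusted p = 0.0196, adjusted p = 0.389) was 0.58 without control replicate 2 (unadjusted p = 0.00206).

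Nfil3 (ENSMUSG00000056749, chromosome 13, 52967209 to 52981073, minus strand), the repressor at D-boxes and a factor needed for natural killer cell development, was the only member below 0. It stood at 6.97, 11.8 and 9.34 CPM in knockout livers against 6.72, 14.8 and 13.9 CPM in control livers. Both replicates 1 were low and control replicates 2 and 3 were the 2 highest, so that the groups overlapped. The means were 9.36 ± 2.40 and 11.8 ± 4.43 CPM (SD, n = 3 each), a log2 fold change of -0.34 with a standard error of 0.31 (edgeR unadjusted p = 0.311, adjusted p = 0.709). Leaving out 1 library moved the log2 fold change between -0.14 (without control replicate 2, edgeR unadjusted p = 0.698) and -0.61 (without control replicate 1, 0.0343); it was -0.16 without knockout replicate 1, -0.53 without knockout replicate 2 and -0.20 without control replicate 3.

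Set beside its repressor within each liver, Dbp spanned a wide range. The ratio of Dbp to Nfil3 in TPM was 10.2, 3.69 and 11.3 in the knockout livers, beside 6.09, 0.674 and 1.10 in the control livers. In control replicate 2 the repressor's transcript was the more abundant of the pair, and in control replicate 3 both were about level. Control replicate 1 lay above knockout replicate 2, so that the ratio overlapped between the groups.

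Ciart (ENSMUSG00000038550, chromosome 3, 95878503 to 95882251, minus strand), which encodes a repressor of CLOCK and BMAL1 and carried the 3 E-boxes shown above, had the largest fold change of the set. Its counts were low: 153, 82 and 220 in knockout libraries against 53, 40 and 11 in control libraries. These are 8.14, 4.70 and 12.1 CPM against 2.68, 1.90 and 0.54 CPM, with control replicate 3 lowest. The means were 8.31 ± 3.70 and 1.71 ± 1.08 CPM (SD, n = 3 each), a log2 fold change of 2.28 with a standard error of 0.54 (edgeR unadjusted p = 0.00265, adjusted p = 0.367). Each fit without 1 library kept an unadjusted p of 0.013 or less, with log2 fold changes from 1.86 to 2.77. The gene overlaps an antisense gene, C920021L13Rik, which was not analysed here.

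Usp2 (ENSMUSG00000032010, chromosome 9, 44067021 to 44095627, plus strand) encodes a deubiquitinating enzyme that acts on clock proteins. It had the smallest p of the set, ranking 73 among 13197 genes. Its values were 22.8, 15.0 and 35.6 CPM in knockout livers against 11.6, 5.67 and 6.49 CPM in control livers. Control replicate 1 came nearest to the knockout livers, and control replicates 2 and 3 were close together. The means were 24.4 ± 10.4 and 7.91 ± 3.20 CPM (SD, n = 3 each), a log2 fold change of 1.63 with a standard error of 0.37 (edgeR unadjusted p = 0.00209, adjusted p = 0.367). No fit without 1 library gave an unadjusted p above 0.0119. The gene overlaps Gm49380 and Gm39325 on the opposite strand. Gm49380 had 0 counts in each library, and Gm39325 was not among the genes with deposited values. Tef, Bhlhe40 and Bhlhe41 also overlap antisense genes, which were not analysed here.

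Bhlhe40 and Bhlhe41, also called DEC1 and DEC2, encode basic helix-loop-helix repressors that compete for E-boxes. Bhlhe40 (ENSMUSG00000030103, chromosome 6, 108660629 to 108666925, plus strand) stood at 77.4, 159 and 154 CPM in knockout livers against 71.1, 95.1 and 87.2 CPM in control livers. Knockout replicates 2 and 3 were high, while knockout replicate 1 lay among the control livers. It differed by a log2 fold change of 0.63, standard error 0.27 (edgeR unadjusted p = 0.0452, adjusted p = 0.457). Scaled to total counts it was 0.40 (edgeR unadjusted p = 0.206). Without knockout replicate 1 it was 0.90 (0.000993), and each of the other 5 fits that drop a library had an unadjusted p of 0.0544 or more, with 0.46 (0.15) without knockout replicate 2.

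Bhlhe41 (ENSMUSG00000030256, chromosome 6, 145858243 to 145865558, minus strand) was low and nearly even, at 6.44, 9.35 and 8.52 CPM in knockout livers against 6.37, 7.57 and 7.08 CPM in control livers. Its log2 fold change of 0.21 had a standard error of 0.20 (edgeR unadjusted p = 0.321, adjusted p = 0.718). The direction turned with the scaling: scaled to total counts the log2 fold change was -0.01, where the median of all genes was -0.21, and relative to that median it was 0.20.

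**Figure D2:**
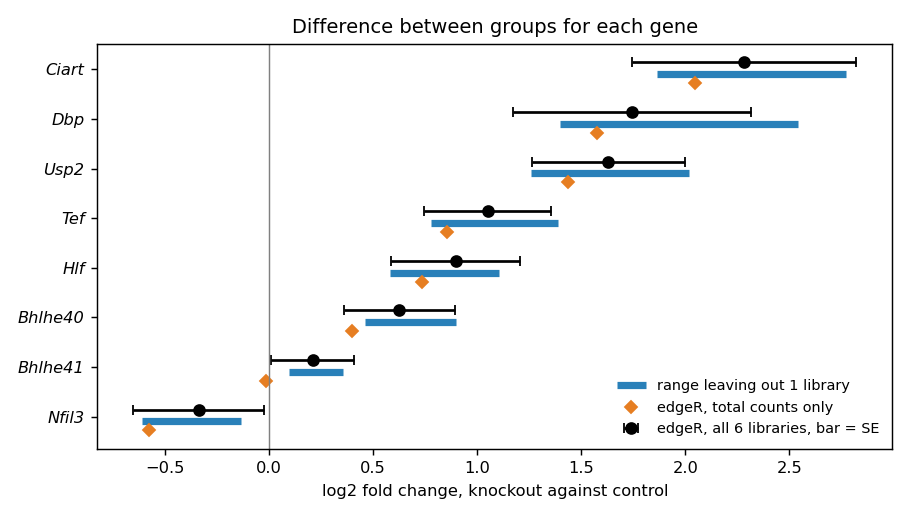
Log2 fold change, knockout against control (horizontal axis), of each gene: the black point and bar give the edgeR value and its standard error, the blue band the range over the 6 fits that leave out 1 library, and the orange diamond the fit on total counts. The blue bands of 7 genes lie above 0 and that of Nfil3 below it, and the diamond of Bhlhe41 sits at -0.01.

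Under other scalings the 5 larger differences kept their direction. Scaled to total counts, which moved the median of all genes to -0.21, the log2 fold changes were 2.05 for Ciart, 1.57 for Dbp, 1.44 for Usp2, 0.86 for Tef and 0.74 for Hlf, or 2.26, 1.78, 1.64, 1.06 and 0.94 relative to that median. In log2(TPM + 1) they were, in the same order, 1.81, 1.59, 1.055, 0.82 and 0.70. Relative to the median of all genes these values were 2, 1.79, 1.25, 1.02 and 0.89. Usp2 thus fell from 1.62 relative to all genes in the main edgeR fit. The number of members with an unadjusted p under 0.05 in edgeR's test was 6 with all libraries, 3 without knockout replicate 3 (Tef, Ciart and Usp2), and 4 without control replicate 2 or without control replicate 3 (Tef, Hlf, Ciart and Usp2 in both). Tef, Ciart and Usp2 kept such a p in each of the 6 fits that leave out 1 library.

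Per length, the order of the members differed between the groups. In control livers it ran Bhlhe40 at 55.5 ± 17.4, Tef at 27.0 ± 8.63, Dbp at 20.8 ± 14.2, Nfil3 at 12 ± 5.85, Hlf at 8.46 ± 2.66, Usp2 at 6.43 ± 1.58, Ciart at 2.80 ± 1.82 and Bhlhe41 at 2.64 ± 0.634 TPM (SD, n = 3). Neighbours in that order overlapped, except that Bhlhe40 was above Tef and Usp2 above Ciart in their full ranges. In knockout livers Bhlhe40 (70.5 ± 25.2 TPM), Dbp (60.6 ± 25.4) and Tef (48.3 ± 13.9) overlapped at the top, and Tef was clear of Usp2 (15.2 ± 6.998). Usp2, Hlf (13.9 ± 0.871), Ciart (11.965 ± 6.196) and Nfil3 (7.78 ± 2.06) followed with overlapping neighbours, and Bhlhe41 (2.48 ± 0.816) was lowest. Nfil3 thus held the fourth place in control and the seventh in knockout livers; this change of place was not tested.

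Across single livers several members shared an order on the TMM scale. For Dbp, Tef, Hlf and Usp2 the TMM-scaled level ran knockout replicate 3, knockout 1, knockout 2, control 1, control 3 and control 2, from high to low. Ciart shared the first 4 places and had the last 2 exchanged, so that 5 members had the same first 4. Bhlhe40 and Bhlhe41 shared another order, with knockout replicates 2 and 3 highest, control replicates 2 and 3 next, and both replicates 1 lowest. Nfil3 had an order of its own and was also lowest in both replicates 1. These orders changed with the scaling: on total counts Dbp and Tef had control replicate 1 above knockout replicate 2 (34.4 against 33.8 CPM for Dbp), Tef and Usp2 were lowest in control replicate 3, and Bhlhe41 was highest in control replicate 2. The spread within a group was wide: Dbp differed from 8.38 to 34.0 CPM among control livers of one diet, more than the gap between the nearest livers of the 2 groups.

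**Figure D3:**
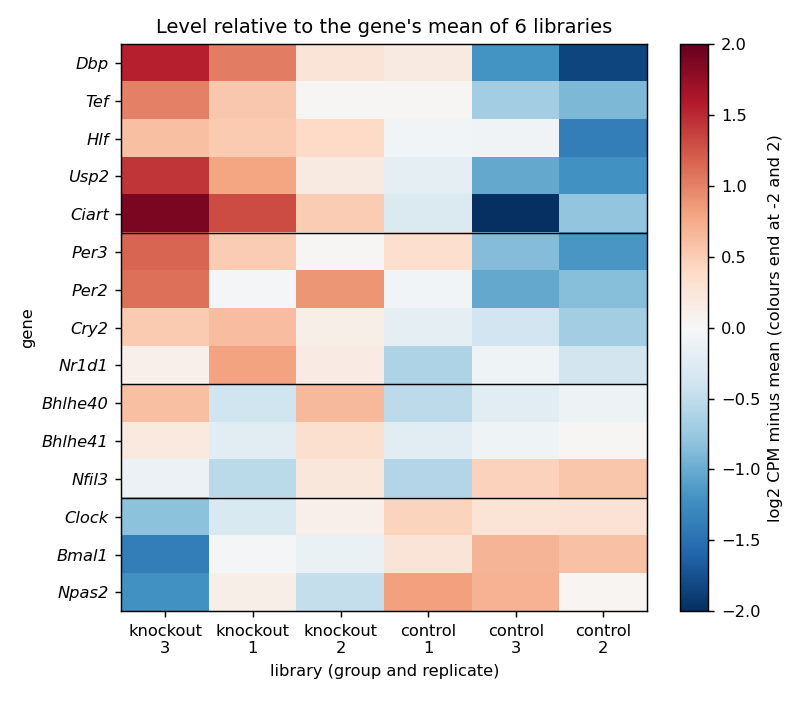
Log2 CPM of each gene minus its mean over the 6 libraries (colour, red above and blue below the mean; the colours end at -2 and 2), with libraries in columns ordered as for Dbp and genes in rows. The 5 upper rows run from red at knockout replicate 3 to blue at control replicate 2, with Hlf pale and Ciart bluest in control replicate 3. Clock, Bmal1 and Npas2 in the lowest rows are bluest in knockout replicate 3.

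Of 15 genes of the core clock loop, 4 stood higher and 3 lower at an unadjusted p under 0.05 in edgeR's test, beside 3.75% and 7% of all genes. Of these 15 genes 0 passed over all genes. Their median log2 fold change was 0.02, or -0.21 on total counts, where that of all genes was -0.21. The repressors of the loop differed in direction: Cry2, Per2 and Per3 had log2 fold changes of 0.84, 1.31 and 1.05, Cry1 one of 0.19 and Per1 one of -0.71. For Per1 each knockout liver lay below each control liver, at 9.95, 21.3 and 26.4 against 35.6, 32.4 and 26.5 CPM. The margin was small, 26.43 against 26.54 CPM in both replicates 3. With an edgeR unadjusted p of 0.0521, Per1 was not among the 3 lower genes counted above. Nr1d1, which encodes REV-ERB alpha, the repressor of Nfil3 and Bmal1, stood at 129, 82.3 and 79.4 CPM in knockout livers against 48.1, 57.2 and 69.2 CPM in control livers. The groups were separate for Nr1d1, with knockout replicate 1 highest. The activator Bmal1 stood at 8.24, 7.63 and 3.19 CPM in knockout livers against 10.0, 12.5 and 13.4 CPM in control livers, and Clock had a log2 fold change of -0.63. Bmal1 was thus lowest in knockout replicate 3, the liver with the highest Dbp, Tef, Hlf, Ciart and Usp2. Nr1d2, the other REV-ERB gene, was even, with a log2 fold change of 0.08 and a standard error of 0.13.

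The genes most like the PAR bZIP factors were found by the root mean square difference from the mean pattern of Dbp, Tef and Hlf in log2 CPM, each gene centred on its mean over the 6 libraries. The mean pattern stood at 0.69, 0.23 and 1.05 in the knockout livers, with 0.05, -1.37 and -0.66 for the control livers. Outside the set the 5 nearest were the water channel gene Aqp11 (0.182), Per3 (0.209), Rarres1 (0.228), the transglutaminase gene Tgm1 (0.241) and the mitochondrial carbonic anhydrase gene Car5a (0.264), where the median of all genes tested was 0.851. Of the other members Usp2 was close (0.244), Bhlhe40 (0.785) and Bhlhe41 (0.808) lay just under that median, and Ciart (0.875) and Nfil3 (1.17) lay above it. The 3 factors that define the pattern lay at 0.219 (Tef), 0.321 (Hlf) and 0.382 (Dbp). All 5 outside genes were thus nearer to it than Hlf and Dbp, and Aqp11 and Per3 were nearer than Tef. This measure depends on the size of a gene's swings as well as on their order. Ciart ran from 1.82 in knockout replicate 3 to -2.44 in control replicate 3, whereas Bhlhe41 stayed between -0.23 and 0.32. Per3 encodes a Period protein, and its level was 9.25, 6.60 and 14.5 CPM in knockout livers against 8.24, 2.91 and 3.56 CPM in control livers, with control replicate 1 above knockout replicate 2.

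Per3 was also the only one of the 15 core clock genes with a D-box in the windows found, which covered 10 of them. Its window held TTATGTAA at 2 places, beginning 205 and 158 bases before the start. The stretch is shown as an example of the element that DBP, TEF, HLF and NFIL3 share, and binding to these copies was not tested. The stretch is written 5′ to 3′ with the D-boxes in capitals, from RefSeq on GRCm38.p6.
Per3, chr4:151044786-151044900, minus strand: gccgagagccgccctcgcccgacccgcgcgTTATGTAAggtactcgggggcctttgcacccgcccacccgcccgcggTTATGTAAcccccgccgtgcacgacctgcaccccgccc

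Genes known as targets of the PAR bZIP factors or of Nfil3 in liver were examined next. Of 12 such genes 11 were tested and 7 lay above 0, beside 51.2% of all genes tested. At an unadjusted p under 0.05 in edgeR's test, 2 stood higher and 0 lower, beside 3.75% and 7% of all genes. The median log2 fold change of the list was 0.39. That median was 0.18 on total counts, 0.093 in log2(TPM + 1) and 0.175 without knockout replicate 3. Cyp2a5, a coumarin hydroxylase, stood at 596, 579 and 576 CPM in knockout livers against 429, 296 and 257 CPM in control livers. The knockout livers were nearly level and all above the control livers (log2 fold change 0.83, edgeR unadjusted p = 0.00472, adjusted p = 0.367). Pdxk, which makes the active form of vitamin B6, was separate too, at 67.8, 69.4 and 98.5 CPM against 58.2, 45.8 and 58.7 CPM. Por, the electron donor of cytochromes P450, and Ppara, the fatty acid receptor, had log2 fold changes of 0.52 and 0.39 with overlapping groups. Cyp2a4, a near-identical copy of Cyp2a5 whose reads may be exchanged with it, reached 135 CPM in control replicate 2 and at most 16.9 CPM in the other libraries. No D-box was found in the windows of the 11 target genes that had one.

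Of 10 other rhythmic liver genes, 2 stood higher and 2 lower at an unadjusted p under 0.05 in edgeR's test, beside 3.75% and 7% of all genes. The median of the list was 0.13, or -0.066 on total counts, 0.367 without knockout replicate 1 and -0.167 without knockout replicate 3. Wee1, a kinase that restrains mitosis and a known E-box output, was separate and higher (log2 fold change 0.69). Gys2, the liver glycogen synthase, stood at 318, 140 and 383 CPM in knockout livers against 174, 102 and 146 CPM in control livers. Fmo2 and the glucocorticoid-induced Tsc22d3 had log2 fold changes of -0.79 and -0.78.

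**Figure D4:**
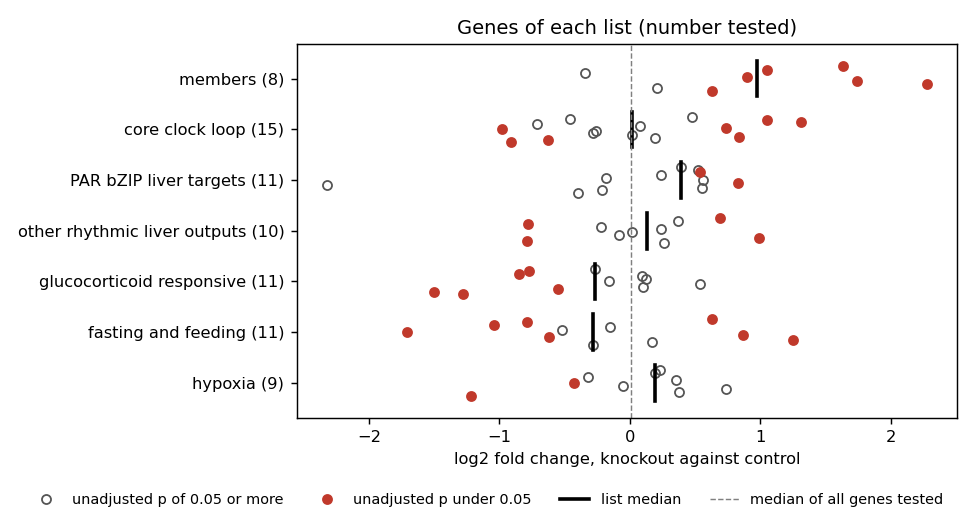
Log2 fold change, knockout against control (horizontal axis), of the tested genes of each list (rows, number of genes in brackets; the first row holds the 8 members); filled red points have an unadjusted p under 0.05 in edgeR, open points do not, black bars are list medians and the dashed line is the median of all genes tested. The bar of the 8 members lies at 0.97 and those of the other lists between -0.28 and 0.39.

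Hormonal, feeding and oxygen signals also act on some members, and lists for them gave the following. Of 11 glucocorticoid-responsive genes 0 stood higher and 5 lower at an unadjusted p under 0.05, with a median of -0.27. With 1 library left out this median ran from -0.546 (control replicate 1 dropped) to -0.0588 (knockout replicate 2 dropped). Among these the kinase gene Sgk1 had a log2 fold change of -0.85 and Ddit4, an inhibitor of mTORC1, one of -1.50. Of 11 fasting and feeding genes 3 stood higher and 4 lower, with a median of -0.28, which ran from -0.459 with knockout replicate 3 dropped to -0.041 with knockout replicate 2 dropped. Igfbp1, which insulin represses, stood at 117, 166 and 58.4 CPM in knockout livers against 455, 300 and 363 CPM in control livers, and Fasn, the fatty acid synthase, had a log2 fold change of 1.25, with knockout replicate 1 (94.9 CPM) among the control livers (80.0 to 135 CPM). Of 9 tested hypoxia genes 0 stood higher and 2 lower (Adm, -1.22, and Ndrg1, -0.43), with a median of 0.19, or -0.049 on total counts, -0.018 with control replicate 2 dropped and -0.037 with control replicate 3 dropped. Beside these counts, 3.75% of all genes stood higher and 7% lower at an unadjusted p under 0.05 in edgeR's test. None of the listed genes passed over all genes in that test, and their part in the members' values was not tested.

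Markers of other cells differed between the libraries. The summed CPM of 8 of 8 proliferation genes, on total counts, was 65.3 to 200.1 in control and 32.2 to 51.8 in knockout livers, and that of 8 of 8 stellate cell genes was 1192 to 2559 and 1027 to 1152. For 8 of 8 cholangiocyte genes it was 518 to 1599 and 238 to 530. Control replicate 2, the liver with the least Dbp and Hlf on both scales, had the highest sum in these 3 lists. For 9 of 10 hepatocyte genes the sum was 104100 to 133400 and 133100 to 148800, lowest in control replicate 2. For 9 of 9 endothelial genes it was 434 to 506 and 468 to 495. For 9 of 9 T and natural killer cell genes it was 10.0 to 14.9 and 13.4 to 23.7, highest in knockout replicate 1. For 8 of 8 Kupffer cell and macrophage genes it was 537 to 966 and 812 to 1041. For 5 of 5 B cell genes it was 36.3 to 83.1 and 17.6 to 69.0, and for 6 of 6 neutrophil genes 10.0 to 18.0 and 8.92 to 55.4, with the neutrophil surface gene Ly6g at 0 in at least 1 library. Abundant genes made most of some sums: Spp1 for cholangiocytes, Alb for hepatocytes, Jchain for B cells, and Dcn with Col3a1 for stellate cells. Taken singly on the TMM scale, 0 of 8 stellate cell, 2 of 7 tested cholangiocyte and 6 of 8 proliferation genes were separate and lower in the knockout. Over all genes that share was 9.14%. Separate and higher were 4 of 9 tested hepatocyte, 3 of 8 Kupffer cell and macrophage and 3 of 9 T and natural killer cell genes. The same held for 2 of 9 endothelial, 1 of 4 tested B cell and 0 of 5 tested neutrophil genes. In that direction the share over all genes was 7.25%. No gene of these higher lists was separate and lower. Mitochondrial genome transcripts took 5.74% of the counts in knockout replicate 3, the liver with the most Dbp, and 7.61% to 8.73% in the other libraries. The part of these markers and of this share in the members' values was not tested.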

How the data were processed

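Whole liver of 6 mice was measured by strand-specific polyA RNA sequencing, per the labels. The deposited table holds estimated counts and TPM values per gene and library, both made by the authors; the submitters' processing notes name, without roles, the tools DESeq2 1.38.3, RSEM 1.3.3, fastp 0.23.2 and HISAT2 2.2.1 and the build GRCm38. The sources used here do not say if counting was by strand, which leaves overlapping antisense genes uncertain. The deposited estimated counts (6.93% not whole) were rounded, and the deposited TPM values were used for levels per length and for 2 alternatives.

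edgeR 4.0.16 (quasi-likelihood, robust, TMM, filterByExpr) was fitted to all genes, with Benjamini-Hochberg adjustment at 0.05 over 13197 genes. Standard errors were the fold change divided by the root of F. No list was given a set test. Gene positions are from GENCODE M21 (21852 of 21956 identifiers matched) and promoters from RefSeq. Motifs were matched by exact letters. No pair of libraries agreed within counting noise.

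Alternatives were DESeq2 1.42.0, limma-voom (limma 3.58.1), 3 other scalings, 2 other filters, no robust fit, log2(TPM + 1), log2(TPM + 0.1), a replicate block and each library left out. Software was R 4.3.3, matplotlib 3.10.9 and Python 3.11.15. The members and lists were chosen with earlier results of these data known. Genes named are the members, up to 4 genes with the smallest p of each list, the 5 nearest in pattern, Sting1 and Alb; Bmal1, Npas2, Nr1d2, Per1, Cry1, Cyp2a4, Fasn and Sphk2 were chosen after their values were seen, and not every gene the rule allows is named.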

Additional observations from a re-analysis of the deposited data

How the results depend on the processing

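The log2 fold changes of 7 members kept their direction under all 17 alternatives; that of Bhlhe41 turned to -0.014 with total counts, -0.076 in log2(TPM + 1) and -0.11 in log2(TPM + 0.1). DESeq2 called Tef (1.07), Ciart (2.31) and Usp2 (1.65), and no other alternative called a member. The count of genes passing over the whole table was 0 in edgeR (1419 at an unadjusted p under 0.05), 127 in DESeq2 and 5 with the replicate block; leaving out 1 library gave 0 to 2, with 2 genes without control replicate 2 and without control replicate 3. Deviations of same-numbered livers from their group means correlated at 0.115, -0.007 and 0.133 across genes. Livers of unlike number correlated at -0.281 to 0.178, with 0.145 for knockout replicate 1 and control replicate 2. With 3 livers per group these small values cannot decide whether the numbers pair the animals. The replicate block gave 1792 genes at an unadjusted p under 0.05 in edgeR's test and called no member. The cause of these differences was not tested. Leaving out 1 library, the log2 fold change ran from 1.40 to 2.54 for Dbp, 0.78 to 1.39 for Tef, 0.58 to 1.11 for Hlf, -0.61 to -0.14 for Nfil3, 1.86 to 2.77 for Ciart, 1.26 to 2.02 for Usp2, 0.46 to 0.90 for Bhlhe40 and 0.10 to 0.35 for Bhlhe41.

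Several list medians moved with the scaling or with single libraries. With total counts, log2(TPM + 1) and log2(TPM + 0.1) the core clock median was -0.21, -0.20 and -0.21, that of other rhythmic genes -0.066, -0.089 and -0.119, of glucocorticoid genes -0.54, -0.41 and -0.42, and of hypoxia genes -0.049, -0.125 and -0.131, where the median of all genes was -0.21, -0.20 and -0.22. PAR bZIP targets stood at 0.0932 and 0.0941 in the TPM fits, fasting and feeding genes at -0.57 in log2(TPM + 0.1), and hypoxia genes at 0.0639 with at least 10 counts in every library. Without single libraries, list medians lay between 0.175 and 0.586 for PAR bZIP targets, -0.167 and 0.367 for other rhythmic genes, -0.546 and -0.0588 for glucocorticoid genes, -0.0367 and 0.276 for hypoxia genes, -0.029 and 0.070 for the core clock and -0.459 and -0.041 for fasting and feeding genes. Ciart rests on 11 to 53 counts in control livers.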
